A study of Caenorhabditis elegans with 24 samples.

Results

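The genes described here encode the proteins of the cytosolic ribosome of the nematode Caenorhabditis elegans. They were taken as every gene probe of the array whose WormBase gene ID lies between WBGene00004412 and WBGene00004456, the run of IDs given to the rpl class (large ribosomal subunit), or between WBGene00004469 and WBGene00004499, the run given to the rps class (small ribosomal subunit). Of the 76 IDs in these runs, 72 had a probe, 41 of the rpl class and 31 of the rps class, out of 15208 gene probes with 1 probe per gene. The other 4 IDs had no probe among those used here. The files and the reference table pair none of the IDs with a gene name, so members are given by ID and class. Their class rests on the ID alone, and the lists of other translation genes and of embryonic stage markers, which use gene names, were not tested.

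Cytosolic ribosomes translate the messenger RNAs of the cell, and each is built from a large subunit, which forms the peptide bonds, and a small subunit, which reads the messenger RNA. Ribosomal proteins fold and stabilise the ribosomal RNA of both subunits and are needed in matched amounts, and in many eukaryotes their messenger RNAs change together with growth, nutrition and stress. In the C. elegans embryo at the 4-cell stage most messenger RNA was laid down by the mother's germ line, and transcription of the embryo's own genome is only beginning.

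The study asked whether the temperature at which parents or grandparents had lived changed the messenger RNA of 4-cell embryos. Each of the 24 samples was a separately collected pool of 50 embryos, hybridised to 1 array, with 3 samples in each of 8 groups. The strains were HC445, a strain labelled as carrying sid-1(qt9) and suspected to lack haf-6, and N2, the standard wild-type laboratory strain. In each strain, generation 2 embryos had mothers kept at 25 °C or 20 °C, and in both cases their grandparents had lived at 20 °C. Generation 3 embryos had mothers kept at 20 °C, and their grandparents had lived at 25 °C or 20 °C. All worms were fed a sporulation-defective Bacillus subtilis strain in place of Escherichia coli, and all RNA went through 2 rounds of in vitro transcription before labelling. sid-1 encodes a channel that imports double-stranded RNA, and haf-6 a half-molecule ABC transporter linked to RNA interference. Because haf-6 was only suspected to be lost, a difference between the strains cannot be tied to either gene.

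Values are the log2 of the processed signal of a probe minus the 75th percentile of its array, called the log2 signal below. On this scale 1 unit is a doubling, and 0 is the 75th percentile. Values of different probes are not set against each other, since brightness depends on the probe as well as on its messenger RNA. The 75th percentile of the processed signal ranged from 30282 to 45402 over the 24 arrays, and between 9109 and 13075 probes were well above background on an array. The arrays lay on 14 slides and were scanned on 3 days, and each day held 1 array of every group, so that the replicate number is also the scan day. All 4 replicate 3 arrays of the 25 °C groups shared 1 slide with no 20 °C array on it. On that of N2 embryos of 25 °C mothers, 1518 gene probes shared the lowest value of the array. The number was 1976 on that of HC445 embryos of 25 °C mothers and 1653 on that of N2 embryos with 25 °C grandparents. Every other array had 1 such probe. How far this moved the shares of all tested probes lower after 25 °C was not tested. Of the 6 arrays with a note on the spike-in controls, 5 belonged to 25 °C groups.

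Every ribosomal protein probe was measured on every array. All 72 were well above background on all 24 arrays, and 68 of the 72 were among the 3879 brightest of the tested probes by mean signal. Of 1728 spots of these probes, 1 was saturated, that of WBGene00004424 (rpl class) on the replicate 2 array of N2 embryos with 25 °C grandparents, and 0 were marked as outliers. Tests ran across 11637 probes, those that exceeded background clearly on all arrays of 1 or more groups, and all 72 members passed this filter in every group.

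The median log2 signal of the 72 probes gives the level of the whole set on an array. In HC445 embryos of 25 °C mothers it was 1.93, 2.01 and 2.06 on the arrays of replicates 1, 2 and 3, against 2.26, 2.45 and 2.22 in HC445 embryos of 20 °C mothers. In N2 embryos of 25 °C mothers it was 2.09, 1.96 and 2.11, against 1.94, 2.20 and 3.15 in N2 embryos of 20 °C mothers. On this scale the HC445 groups did not overlap and the N2 groups did, and 1 N2 array, at 3.15, was far above all others. In generation 3 the HC445 arrays gave 2.27, 2.53 and 2.35 with 25 °C grandparents, against 2.58, 2.47 and 2.82 with 20 °C grandparents. The N2 arrays gave 2.12, 2.15 and 2.42 with 25 °C grandparents, against 2.26, 2.25 and 2.35 with 20 °C grandparents. Both of these pairs of groups overlapped. The picture depended on the scale. Taken relative to the median of all tested probes of the array, the HC445 groups of generation 2 overlapped too. They ran from 5.72 to 5.88 after 25 °C mothers and from 5.84 to 6.09 after 20 °C mothers. On that measure the highest N2 array stood at 6.49, against 6.38 on the next highest array. Because each value is relative to the whole RNA of its sample, less of these messages and more of the other RNA cannot be told apart. Nor can fewer cells with these messages and less message per cell.

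**Figure D1:**
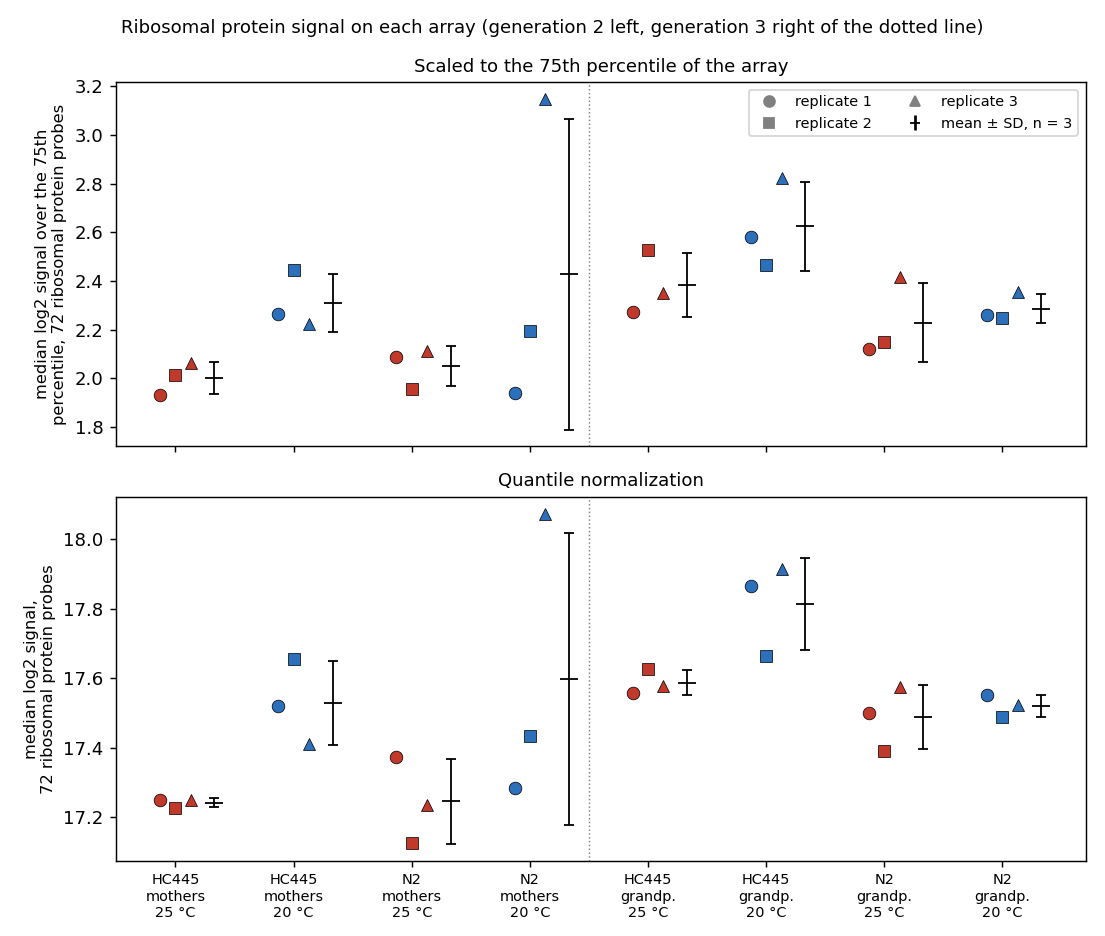
Median log2 signal of the 72 ribosomal protein probes on each of the 24 arrays, scaled to the 75th percentile of the array (upper panel) and after quantile normalization (lower panel). Points are arrays (red, 25 °C groups; blue, 20 °C groups), and the bars beside them are the mean ± SD (n = 3). The 6 arrays of embryos of 25 °C mothers lay between 1.93 and 2.11 in the upper panel, and the replicate 3 array of N2 embryos of 20 °C mothers stood at 3.15.

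That N2 array, replicate 3 of the embryos of 20 °C mothers, stood apart for the whole set. All 72 ribosomal protein probes were higher on it than on both other arrays of its group, by a median of 1.11 log2 units over the mean of the others (0.44 to 2.04), whereas all tested probes were higher by a median of 0.35. After quantile normalization, which gives every array the same distribution of values, the median excess of the 72 probes was 0.75. The array's 75th percentile was 30737, against 41130 and 44348 on the other arrays of the group, and the median unscaled signal of the 72 probes was 272442, against 157654 and 203100, so the set was also brighter on it before any scaling. It was alone on its slide, carried no spike-in note and received the lowest of the 24 array quality weights, 0.28. What set it apart was not tested, and results that rest on it are given with and without it.

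Other arrays showed smaller shifts of the same kind. On the replicate 3 array of HC445 embryos with 20 °C grandparents 69 of the 72 probes were above both other arrays of the group (median difference 0.32), and on that of N2 embryos with 25 °C grandparents 62 were (median difference 0.35). All tested probes were higher there too, by medians of 0.19 and 0.17, and after quantile normalization the set's excess was 0.18 and 0.17. On the replicate 1 array of N2 embryos of 20 °C mothers 67 were below both others (median difference -0.78). All tested probes differed there by a median of -0.13, and the set by -0.53 after quantile normalization.

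**Figure D2:**
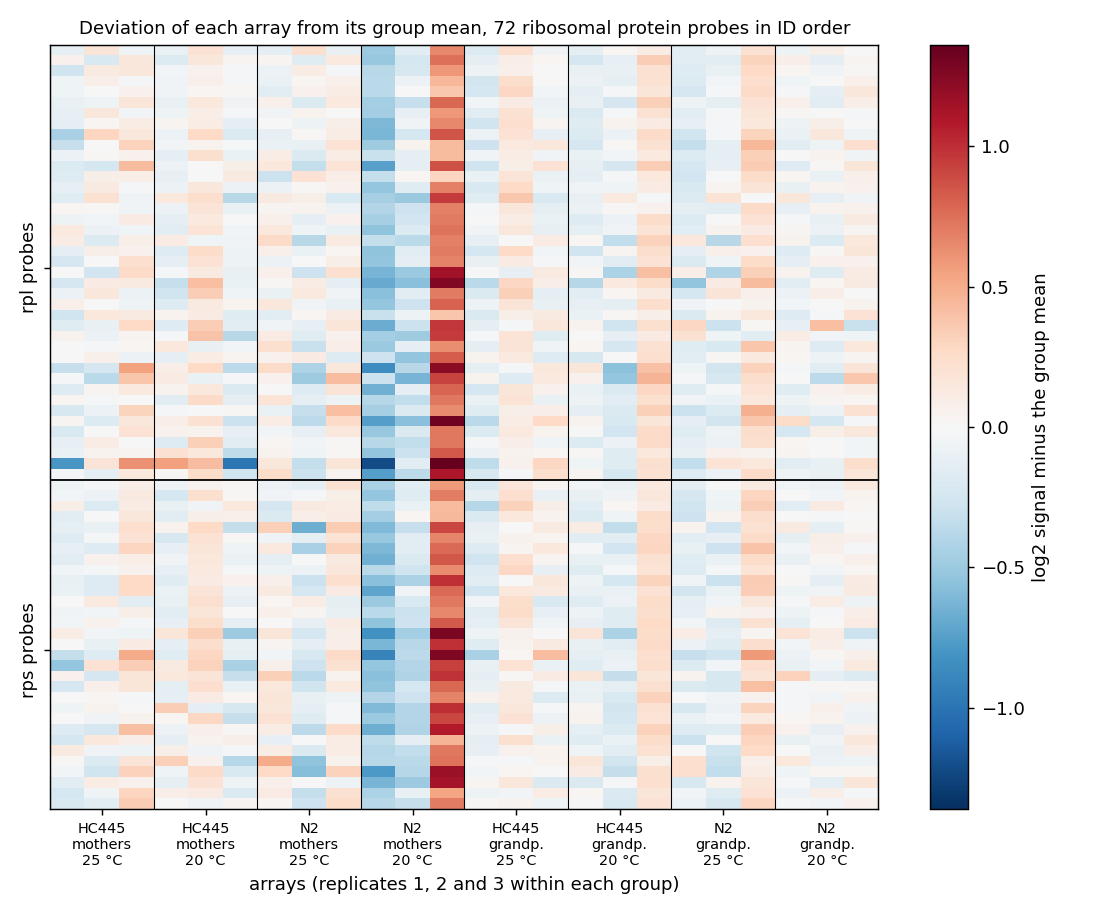
Deviation of every array from the mean of its group for the 72 ribosomal protein probes (rows, rpl class above rps class, in ID order), as log2 signal; columns are the arrays, replicates 1, 2 and 3 from left to right within a group. The column of replicate 3 of N2 embryos of 20 °C mothers is red over both classes, where all 72 probes exceeded the other arrays of the group.

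The members moved together from array to array within groups. After the group means were taken out, the median Pearson correlation over the 2556 pairs of probes was 0.80 across the 24 arrays (-0.04 to 0.98), and 2555 of the pairs were above 0. It was 0.80 between rpl probes, 0.82 between rps probes and 0.80 between rpl and rps probes, so the classes did not form separate blocks. Without the N2 array that stood apart the median was 0.53 and 2443 pairs were above 0. After quantile normalization of all 24 arrays it was 0.67, with 2543 pairs above 0. These correlations describe 24 arrays that each carry a shared amplification, hybridisation and scaling, and are given with no test. No matching correlation over other probes is given, so they cannot be called particular to the set. Since the members moved together, members with fold changes of the same sign in the comparisons below are not independent observations.

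The spread within groups was smaller for the set than for the median tested probe. The median within-group SD was 0.29 log2 units over the 72 probes (0.20 to 0.64), against 0.37 over all tested probes and 0.20 over the 3879 brightest. Without the N2 array that stood apart it was 0.19 for the set, against 0.35 and 0.18. The largest SDs were those of the rpl probes WBGene00004454 (0.64), WBGene00004442 (0.50), WBGene00004434 (0.48) and WBGene00004448 (0.48) and of the rps probe WBGene00004485 (0.51). The log2 signal of WBGene00004454 ranged from -5.56 to -2.57 over the arrays, its lowest value being on the replicate 1 array of HC445 embryos of 25 °C mothers and its highest on the N2 array that stood apart.

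The first comparison asked which messages differed in embryos whose mothers had lived at 25 °C, with both strains pooled. Most ribosomal protein probes gave fold changes below 0 after 25 °C, and 9 passed the test. Of the 72 probes 66 had a fold change below 0 and 6 above it, with a median log2 fold change of -0.29 (-0.82 to 0.20), against -0.07 over all tested probes, of which 57.9% were below 0, and 0.00 over the 3879 brightest. All 9 were lower (limma, Benjamini-Hochberg adjusted p under 0.05). That is 12.5% of the set, and the same call was made for 8.52% of all tested probes and for 4.85% of the 3879 brightest. The share of the set lay above both, and this difference was not tested. The share over all tested probes may include dim probes at the lowest value of the replicate 3 arrays of 25 °C mothers. At an unadjusted p under 0.05 the count was 27 lower, or 37.5% of the set, where 17.0% of all tested probes were lower, and 0 higher.

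Both subunits were among the 9. Of 41 rpl probes 5 fell and 38 had a fold change below 0, with a median of -0.29. Of 31 rps probes 4 fell and 28 had a fold change below 0, with a median of -0.33. The 6 probes with a fold change above 0 were 3 of each class, and none passed the test. The highest of them was WBGene00004423 (rpl class) at 0.20 ± 0.20 (SE; limma adjusted p = 0.574).

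**Figure D3:**
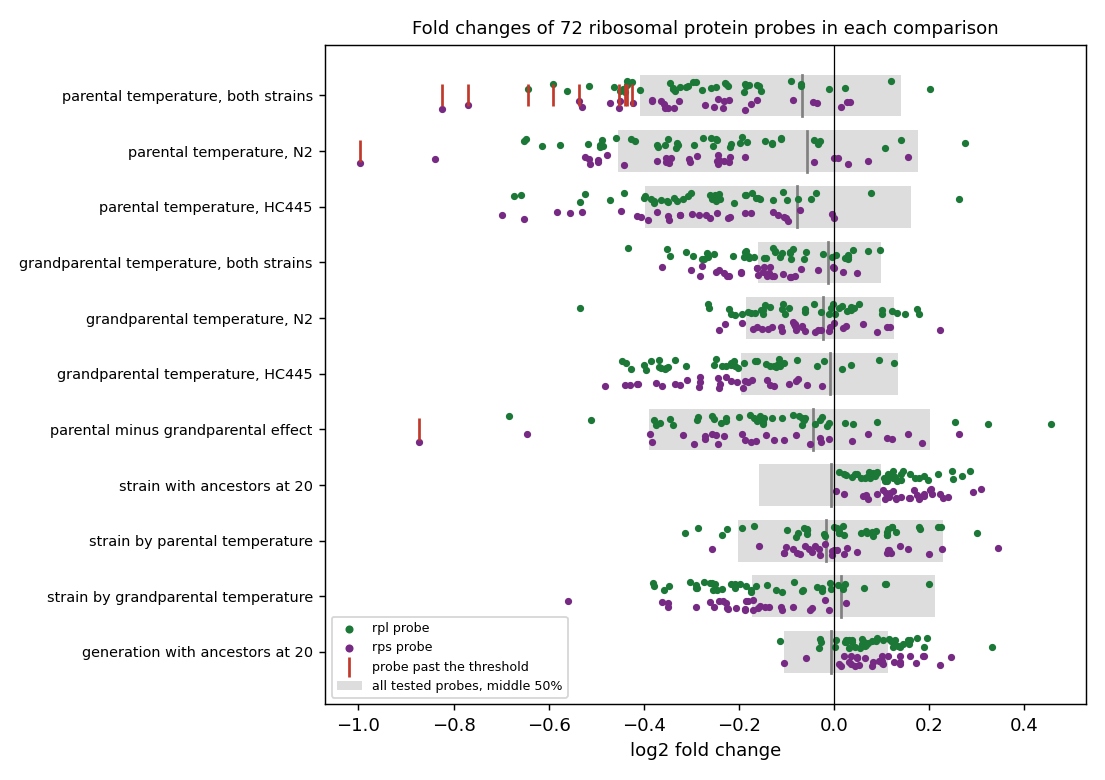
Log2 fold changes of the 72 ribosomal protein probes in each comparison (green, rpl class; purple, rps class; red ticks mark probes past the threshold), over the middle 50% of all tested probes (grey bar) and their median (grey line). Parental temperature shows the lowest medians, with 9 probes past the threshold in both strains pooled, and the fold changes for strain all lie above 0.

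WBGene00004491 (rps class, small subunit) fell furthest. Its log2 signal was 0.16, 0.10 and 0.20 in HC445 embryos of 25 °C mothers, against 0.83, 1.08 and 0.50 in HC445 embryos of 20 °C mothers. In N2 it was 0.26, -0.11 and 0.03 in embryos of 25 °C mothers, against 0.55, 0.66 and 1.97 in embryos of 20 °C mothers. All 6 values after 25 °C lay below all 6 after 20 °C, and the highest was again on the N2 array that stood apart. The pooled log2 fold change was -0.82 ± 0.17 (SE; limma adjusted p = 0.00186), and without that array it was -0.60 ± 0.11 (SE; limma adjusted p = 0.000633). It was the only one of the 72 whose 6 and 6 values did not overlap, where 4.25% of all tested probes were apart and lower.

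WBGene00004473 (rps class) had the next largest change. Its log2 signal was 0.83, 0.85 and 1.19 in HC445 embryos of 25 °C mothers, against 1.71, 1.93 and 1.33 in those of 20 °C mothers, so the HC445 groups did not overlap. In N2 it was 1.21, 0.23 and 1.24 in embryos of 25 °C mothers, against 1.13, 1.42 and 2.65 in those of 20 °C mothers, and the replicate 1 array of the 20 °C group lay below replicates 1 and 3 of the 25 °C group. The pooled log2 fold change was -0.77 ± 0.21 (SE; limma adjusted p = 0.0139), and -0.54 ± 0.16 (SE; limma adjusted p = 0.0315) without the N2 array that stood apart.

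WBGene00004440 (rpl class, large subunit) differed by less between arrays. It gave 2.00, 1.99 and 2.04 in HC445 embryos of 25 °C mothers, against 2.82, 2.58 and 2.64 in those of 20 °C mothers, groups that did not overlap. In N2 it gave 2.36, 1.84 and 2.23 in embryos of 25 °C mothers, against 2.26, 2.63 and 3.39 in those of 20 °C mothers, and the groups overlapped. Its pooled log2 fold change was -0.64 ± 0.15 (SE; limma adjusted p = 0.00424).

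WBGene00004437 (rpl class) fell with a small error. It gave 1.60, 2.02 and 1.99 in HC445 embryos of 25 °C mothers, against 2.44, 2.51 and 2.23 in those of 20 °C mothers. In N2 it gave 1.86, 2.03 and 2.12 in embryos of 25 °C mothers, against 2.05, 2.28 and 2.73 in those of 20 °C mothers. The HC445 groups were apart and the N2 groups overlapped, and the 25 °C array was the lower in all 6 pairs of arrays of 1 replicate number. Its pooled log2 fold change was -0.44 ± 0.11 (SE; limma adjusted p = 0.00967), and -0.34 ± 0.10 (SE; limma adjusted p = 0.0274) without the N2 array that stood apart.

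The other 5 that fell had pooled log2 fold changes between -0.59 and -0.42, and their 6 and 6 values overlapped. For WBGene00004420 (rpl class) the log2 signal was 1.00 to 1.74 after 25 °C (median 1.57, n = 6), against 1.55 to 3.03 after 20 °C (median 1.91, n = 6), and its limma adjusted p was 0.0322. For WBGene00004482 (rps class) it was 1.60 to 1.91 (median 1.69), against 1.76 to 3.14 (median 2.07), with a limma adjusted p of 0.0252. These 2 overlapped through the N2 array of replicate 1 after 20 °C. WBGene00004480 (rps class) gave 2.07 to 2.35 after 25 °C (median 2.25), against 2.25 to 3.47 after 20 °C (median 2.52; limma adjusted p = 0.0399). WBGene00004412 (rpl class) gave 2.03 to 2.43 (median 2.10), against 2.20 to 3.35 (median 2.49; limma adjusted p = 0.0386). WBGene00004446 (rpl class) gave 2.00 to 2.30 (median 2.05), against 2.22 to 3.32 (median 2.29), and was the closest to the threshold (limma adjusted p = 0.0445).

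**Figure D4:**
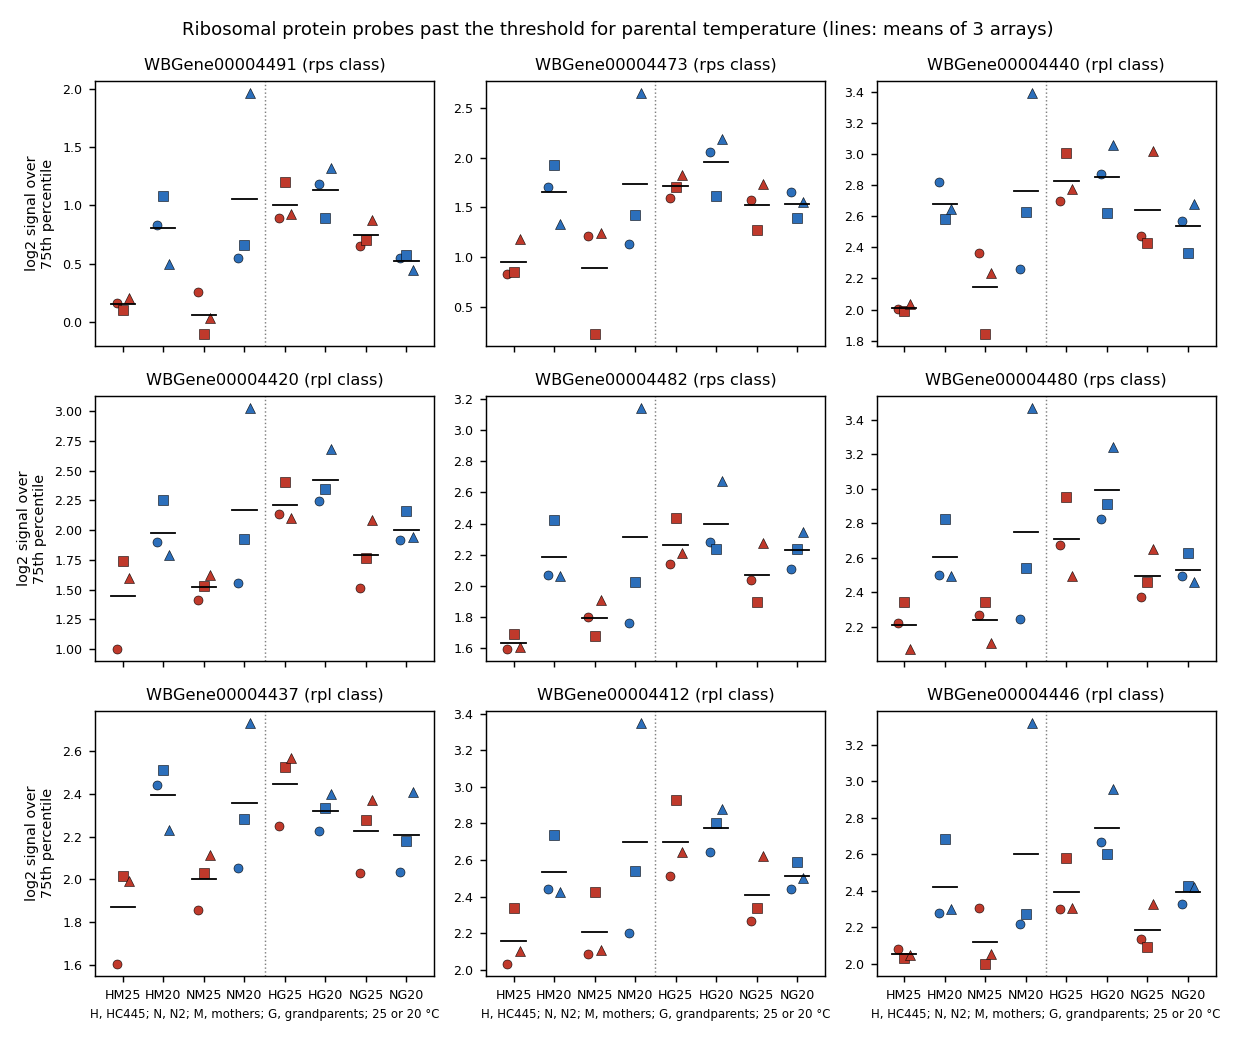
Log2 signal of the 9 ribosomal protein probes past the threshold for parental temperature, on every array. Circles, squares and triangles are replicates 1, 2 and 3, red is 25 °C and blue 20 °C, lines are means of 3 arrays, and the dotted line parts generation 2 (M, mothers at 25 or 20 °C) from generation 3 (G, grandparents at 25 or 20 °C) for HC445 (H) and N2 (N). The triangle of N2 embryos of 20 °C mothers is the highest point of each panel.

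How many of the set fell rested partly on N2 embryos of 20 °C mothers. Without the replicate 3 array of that group 5 probes passed, all among the 9 (WBGene00004491, WBGene00004440, WBGene00004437, WBGene00004473 and WBGene00004482), and 49 of 72 fold changes were below 0, with a median of -0.09 against -0.02 over all tested probes. Without its replicate 1 array 28 passed, and without its replicate 2 array 14. Counts over all tested probes are not given for these fits with 1 array left out. With quantile normalization 22 of the 72 passed, all lower and all 9 among them, where 752 of the 11637 tested probes were lower and 936 higher, and without the replicate 3 array as well 17 passed, again all 9 among them. For this last fit too the count over all tested probes is not given.

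The scan days gave different answers in N2 and the same direction in HC445. In the N2 pair of replicate 1, whose arrays shared a slide, 64 of 72 probes were higher on the 25 °C array, with a median difference of 0.22. In the N2 pair of replicate 2, 53 were lower, with a median of -0.18, and in that of replicate 3, which holds the array that stood apart, 71 were lower, with a median of -1.0. In HC445, 67, 70 and 48 of 72 probes were lower on the 25 °C arrays of replicates 1, 2 and 3, with medians of -0.29, -0.49 and -0.10. When scan day entered the fit as a block, 17 probes passed, all lower and all 9 among them. The count over all tested probes is not given for that fit, so the 17 cannot be read as particular to the set. Over the 6 pairs, 7 probes were lower in every pair (WBGene00004412, WBGene00004420, WBGene00004435, WBGene00004437, WBGene00004477, WBGene00004491 and WBGene00004493), where 12.2% of the 10896 tested probes with a value in all 6 pairs were. Slide could not be separated well from temperature: with slide as a random block 7 passed, and with slide as a fixed block, which leaves 3 residual degrees of freedom, 0 passed and 62 of 72 fold changes were above 0 (median 0.20). Counts over all tested probes are not given for either slide fit, here or in the comparisons below. The counts of these fits thus cannot be read as particular to the set. An array alone on its slide adds nothing to the fixed fit. Among these were the N2 array that stood apart, replicates 1 and 2 of HC445 embryos of 20 °C mothers and replicate 1 of those of 25 °C mothers. Only the N2 pair of replicate 1, with its median of 0.22, shared a slide. The part of the slide in the result cannot be told apart from that of temperature for the replicate 3 arrays.

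**Figure D5:**
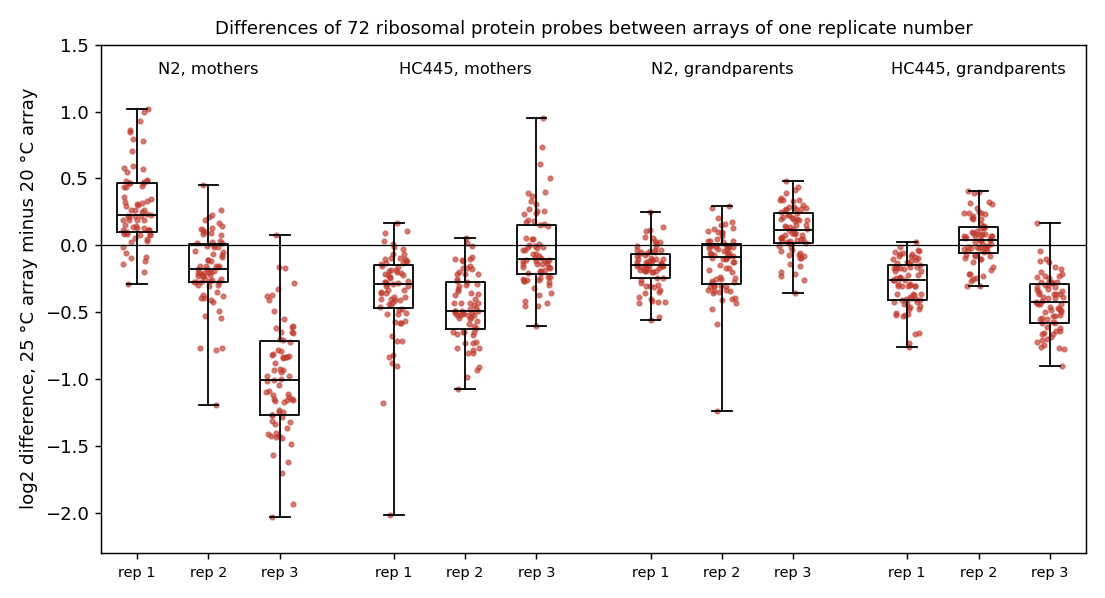
Difference in log2 signal, 25 °C array minus 20 °C array, of the 72 ribosomal protein probes in each pair of arrays with the same replicate number (rep), which also share a scan day; boxes give the middle 50% and whiskers the range. In N2 the medians for mothers ran from 0.22 (replicate 1) to -1.0 (replicate 3), and in HC445 all 3 lay below 0.

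Within single strains few members passed. In HC445, 69 of 72 fold changes were below 0, with a median of -0.26 against -0.08 over all tested probes, and 0 passed the limma threshold, where 2.73% of all tested probes were lower. At an unadjusted p under 0.05, 8 of 72 were lower, where 10.1% of all tested probes were. The smallest adjusted p was that of WBGene00004437 (limma adjusted p = 0.0578), and the largest fold changes were those of WBGene00004473 (-0.70 ± 0.29, SE), WBGene00004440 (-0.67 ± 0.21) and WBGene00004454 (-0.66 ± 0.48). Of the 72 probes 31 were lower on all 3 HC445 arrays of 25 °C mothers than on all 3 of 20 °C mothers, 20 rpl and 11 rps, where 13.6% of all tested probes were. When the N2 array that stood apart was left out, which lowers the shared estimate of the spread, 5 probes passed in HC445. The count over all tested probes is not given for that fit. With scan day as a block 3 passed, all lower, WBGene00004437, WBGene00004440 and WBGene00004421 (rpl class; limma adjusted p of 0.00423, 0.0210 and 0.0251), where 636 of the 11637 tested probes were lower, and with slide as a fixed block 0 passed.

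In N2, 64 of 72 fold changes were below 0, with a median of -0.29 against -0.06 over all tested probes. Only WBGene00004491 passed, at -1.0 ± 0.24 (SE; limma adjusted p = 0.0144), where 3.34% of all tested probes were lower. At an unadjusted p under 0.05, 14 were lower, or 19.4%, against 10.9% of all tested probes. Without the N2 array that stood apart 0 passed, and 47 of the 72 fold changes were above 0 (median 0.09, against 0.05 over all tested probes). On the 75th percentile scale the direction of the set in N2 thus rested on that array. After quantile normalization the set's median on replicates 1 and 2 of 20 °C mothers was 17.28 and 17.43. It was 17.37, 17.13 and 17.24 on replicates 1, 2 and 3 of 25 °C mothers, and the ranges overlapped. With scan day as a block 5 passed, all lower, WBGene00004491, WBGene00004440, WBGene00004473, WBGene00004435 and WBGene00004437 (limma adjusted p 0.00959 to 0.0444), where 767 of the 11637 tested probes were lower. With slide as a fixed block WBGene00004491 did not pass (-0.52 ± 0.17, SE; limma adjusted p = 0.145), and 1 other passed, WBGene00004492 (rps class), higher after 25 °C by 0.67 ± 0.14 (SE; limma adjusted p = 0.0430).

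The difference between the strains in this response was tested for each probe, and 0 of 72 passed, as did 0 of 11637 tested probes (limma). At an unadjusted p under 0.05 the count was 0 of 72, where 1.22% of all tested probes reached it. For the HC445 effect minus the N2 effect 39 fold changes were above 0 and 33 below, with a median of 0.01 and a median SE of 0.31. The largest were those of WBGene00004491 (0.34 ± 0.34, SE), WBGene00004424 (-0.31 ± 0.22) and WBGene00004426 (0.30 ± 0.37). Without the N2 array that stood apart all 72 were below 0, with a median of -0.37 against -0.12 over all tested probes, and again 0 passed.

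The second comparison asked whether a difference remained in embryos whose mothers had lived at 20 °C and whose grandparents had lived at 25 °C. No ribosomal protein probe passed the test with both strains pooled. Of 72 fold changes 61 were below 0, with a median of -0.14 (-0.43 to 0.10), against -0.01 over all tested probes. The count of 0 compares with 0.232% of all tested probes lower and 0.0516% higher (limma), and at an unadjusted p under 0.05, 2 of 72 were lower, where 4.95% of all tested probes were. The smallest adjusted p of the set was 0.600 (WBGene00004450, limma). The count was 0 in each of the 39 other settings too.

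The largest fold changes for grandparental temperature were those of WBGene00004438 (rpl class, -0.43 ± 0.21, SE), WBGene00004497 (rps class, -0.36 ± 0.20) and WBGene00004450 (rpl class, -0.35 ± 0.14). The log2 signal of WBGene00004450 was 2.33, 2.45 and 2.31 in HC445 embryos with 25 °C grandparents, against 2.62, 2.72 and 3.06 with 20 °C grandparents. In N2 it was 2.12, 2.18 and 2.47 with 25 °C grandparents, against 2.55, 2.53 and 2.48 with 20 °C grandparents. All 6 values after 25 °C lay below all 6 after 20 °C, the only probe of the set for which they did, where 0.473% of all tested probes were apart and lower. WBGene00004438 gave -1.75, -1.63 and -1.45 in HC445 with 25 °C grandparents, against -1.23, -1.55 and -1.06 with 20 °C grandparents, and in N2 -1.62, -2.20 and -1.89, against -1.48, -0.96 and -1.67. Both pairs of groups overlapped by 1 array on each side. WBGene00004497 gave 0.95, 1.07 and 0.72 in HC445 with 25 °C grandparents, against 1.20, 1.37 and 1.62 with 20 °C grandparents, and in N2 0.46, 0.72 and 0.85, against 0.89, 0.79 and 1.08. Its HC445 groups were apart and its N2 groups overlapped.

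More members lay below 0 in HC445 than in N2 after grandparents at 25 °C. In HC445, 68 of 72 fold changes were below 0 (median -0.22, against -0.01 over all tested probes), led by WBGene00004497 (-0.48 ± 0.28, SE), WBGene00004434 (-0.45 ± 0.35) and WBGene00004487 (-0.44 ± 0.28). In N2, 49 were below 0 (median -0.06, against -0.02), led by WBGene00004438 (-0.53 ± 0.29, SE), WBGene00004450 (-0.26 ± 0.20) and WBGene00004439 (-0.26 ± 0.25). In both strains 0 passed (limma), where 0.0602% of all tested probes were lower in HC445 and 0.0945% in N2, and at an unadjusted p under 0.05 the counts were 1 lower in HC445, where 2.36% of all tested probes were, and 0 in N2, where 4.67% passed in either direction. The groups were apart and lower for 16 of 72 probes in HC445, where 5.29% of all tested probes were, and for 2 in N2, WBGene00004446 and WBGene00004450, where 4.93% were. WBGene00004491 was apart and higher in N2 (0.22 ± 0.24, SE), where 2.50% of all tested probes were.

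The difference between the strains in the grandparental response was itself tested, and 0 of 72 probes passed, as did 0 of all tested probes (limma), with 0 of the set at an unadjusted p under 0.05, where 2.21% of all tested probes were. Of the 72 values of the HC445 effect minus the N2 effect 64 were below 0, with a median of -0.18 against 0.02 over all tested probes. The largest were those of WBGene00004487 (-0.56 ± 0.40, SE), WBGene00004456 (-0.38 ± 0.42) and WBGene00004435 (-0.38 ± 0.31).

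Scan days split the grandparental comparison as well. In HC445, 71 of 72 probes were lower on the 25 °C arrays of replicates 1 and 3 (medians -0.26 and -0.43). On that of replicate 2, 30 were lower (median 0.04, against 0.08 over all tested probes). The arrays of replicate 1 shared a slide. In N2, 63 and 52 were lower on the 25 °C arrays of replicates 1 and 2 (medians -0.15 and -0.09), and 17 on that of replicate 3 (median 0.12). After quantile normalization 71, 51 and 65 of 72 probes were lower in HC445 for replicates 1, 2 and 3, and 44, 51 and 23 in N2. On that scale the split remained in N2 only. Over the 6 pairs 8 probes were lower in every pair, WBGene00004428, WBGene00004429, WBGene00004438, WBGene00004439, WBGene00004441, WBGene00004446, WBGene00004450 and WBGene00004497, where 4.43% of the 11262 tested probes with a value in all 6 pairs were. When scan day entered this fit as a block, 0 passed.

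The effect of mothers at 25 °C was then set against that of grandparents at 25 °C. WBGene00004491 passed this test, with the parental effect lower than the grandparental by 0.87 ± 0.24 (SE; limma adjusted p = 0.0356), where 2.66% of all tested probes were lower. Its mean log2 signal was 0.11 ± 0.13 after 25 °C mothers and 0.93 ± 0.55 after 20 °C mothers (SD, n = 6 each). In generation 3 it was 0.87 after 25 °C grandparents and 0.83 after 20 °C grandparents (n = 6 each). Next came WBGene00004440 (-0.68 ± 0.21, SE; limma adjusted p = 0.0592) and WBGene00004437 (-0.51 ± 0.16, SE; limma adjusted p = 0.0618), which missed the threshold. Of the 72 values 59 were below 0, with a median of -0.15 against -0.04 over all tested probes. Without the N2 array that stood apart WBGene00004491 still passed (-0.65 ± 0.15, SE; limma adjusted p = 0.0107), but 47 of the 72 values were above 0. The call was lost when any of 13 single arrays was left out, with adjusted p over the 24 such fits between 0.0107 and 0.0710 (limma). With scan day as a block 3 probes passed, all lower, WBGene00004437, WBGene00004440 and WBGene00004491 (limma adjusted p of 0.00464, 0.0176 and 0.0226). The count over all tested probes is not given for that fit. With slide as a fixed block the call of WBGene00004491 was lost (-0.30 ± 0.21, SE; limma adjusted p = 0.562) and 1 other passed, WBGene00004439 (rpl class), with the parental effect the higher (limma adjusted p = 0.0363).

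The next comparison set HC445 against N2 embryos whose ancestors had all been kept at 20 °C, in both generations. All 72 fold changes were above 0, with a median of 0.12 (0.00 to 0.31), against -0.00 over all tested probes, of which 48.6% were above 0. The median SE was 0.15, and 0 passed, as against 0.112% of all tested probes (limma). At an unadjusted p under 0.05 the count was also 0, where 5.41% of all tested probes reached it. The median log2 signal of the set was 2.22 to 2.82 on the 6 HC445 arrays (mean 2.47 ± 0.22, SD), against 1.94 to 3.15 on the 6 N2 arrays (mean 2.36 ± 0.41, SD), and the ranges overlapped.

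The largest fold changes for strain were those of WBGene00004487 (rps class, 0.31 ± 0.20, SE), WBGene00004485 (rps class, 0.29 ± 0.26) and WBGene00004456 (rpl class, 0.29 ± 0.21). The log2 signal of WBGene00004487 was 0.30, 0.34 and -0.16 in HC445 embryos of 20 °C mothers, against -0.34, -0.18 and 1.22 in N2. With 20 °C grandparents it was 0.84, 0.36 and 0.84 in HC445, against 0.31, -0.14 and -0.19 in N2. The groups of generation 3 were apart, and those of generation 2 overlapped through the N2 array of replicate 3.

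The strain difference had the same direction on 5 of the 6 pairs of arrays with 1 replicate number. HC445 was higher than N2 in 71 and 68 of 72 probes in generation 2, replicates 1 and 2, with medians of 0.36 and 0.33, and in 70, 66 and 71 probes in generation 3, replicates 1, 2 and 3, with medians of 0.31, 0.21 and 0.52. In the remaining pair, which holds the N2 array that stood apart, all 72 were lower in HC445, with a median of -0.95. For this reason 0 probes were higher in HC445 in every pair, where 1.10% of the 10965 tested probes with a value in all 6 pairs were. Without that array all 72 fold changes remained above 0, with a median of 0.31 against 0.04 over all tested probes, and 0 passed.

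Finally, generation 3 was set against generation 2 among the groups kept at 20 °C throughout, with both strains pooled. Of 72 fold changes 66 were above 0, with a median of 0.08 against -0.00 over all tested probes, and 0 passed, as did 0 of all tested probes (limma). At an unadjusted p under 0.05 the count was 0 for the set, where 3.15% of all tested probes reached it in either direction. The largest were those of WBGene00004438 (0.33 ± 0.21, SE), WBGene00004485 (0.25 ± 0.26) and WBGene00004497 (0.22 ± 0.20). Without the N2 array that stood apart 71 were above 0, with a median of 0.27 against 0.05 over all tested probes.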

How the data were processed

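Per the file headers, the authors read the arrays with Agilent Feature Extraction 9.5.3.1, which subtracted background from each intensity and removed spatial trends to give the processed intensity. Flags for spots well above background, saturated or outlying come with the same files. A table of the whole series, deposited by the authors, gives log2 values of unstated normalization and was used as an alternative only. Control spots were left out and outlier spots set to missing. The log2 of the processed intensity minus the array's 75th percentile over gene probes was computed here. Probes clearly above background on all arrays of 1 or more groups were tested. In limma 3.58.1 (R 4.3.3) lmFit estimated 8 group means, with no slide or scan day term, and eBayes used a trend. Tests of the 11 contrasts were two-sided, and p-values were adjusted by Benjamini-Hochberg across 11637 probes and called at 0.05. The fit was tested on simulated data.

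The members, lists and tests were chosen with earlier results of these data known. Named probes were, in each comparison, up to 12 past the threshold, otherwise the 3 with the largest fold change, and the 5 with the largest within-group SD; probes that were apart between groups or lower in every pair, the smallest p, the saturated probe, those called with a block term and those next to the threshold were named after their values were seen. The design text calls the samples of a group separately collected, and no source states separate cultures. The p-values therefore cover only the spread among these samples, which may be technical. The highest correlation between 2 arrays was 0.991. The 24 arrays, 3 per group, limit the precision. The reference table matched 0 of 15208 IDs, so gene lists and paralog pairs chosen by name were not tested, and near-identical copies may share signal. Deviations from the group means of arrays with 1 replicate number, which is also the scan day, correlated above 0.1 in every pair for parental temperature in N2 (0.22 to 0.27), grandparental temperature in HC445 (0.14 to 0.29) and strain in generation 3 (0.26 to 0.35). In the other comparisons they did not in every pair (-0.12 to 0.28), and the fit with this number as a block is given beside the results it moved. Alternatives were other scalings, filters, blocks and weights and arrays left out. Figures were drawn with matplotlib 3.10.9.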

Additional observations from a re-analysis of the deposited data

Results flagged for a closer look

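WBGene00004491, of the small-subunit class, is listed because its response to mothers at 25 °C differed from its response to grandparents at 25 °C by a test of the difference itself. The parental minus the grandparental effect was -0.87 ± 0.24 on the log2 scale (SE; limma adjusted p = 0.0356), made up of -0.82 ± 0.17 for mothers and 0.05 ± 0.17 for grandparents (SE). In HC445 and N2 alike the 3 arrays of 25 °C mothers lay below the 3 of 20 °C mothers. It was 1 of 72 ribosomal protein probes past the threshold in that test, where 2.66% of all tested probes were lower. Its highest value, 1.97, was on the replicate 3 array of N2 embryos of 20 °C mothers, which stood apart for the whole set, and without that array the difference was -0.65 ± 0.15 (SE; limma adjusted p = 0.0107). That was the lowest adjusted p of the 24 fits with 1 array left out, which reached 0.0710 (limma), and the call was lost in 13 of them. It was also lost in 3 of 15 other settings. The gap test for a single outlying sample was not applied to groups of 3.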

How the results depend on the processing

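Counts of ribosomal protein probes past the threshold depended on the setting for parental temperature and were 0 in every setting for grandparental temperature (pooled and by strain), strain, both strain interactions and generation. The counts in this section are of the set alone, with no count over all tested probes beside them. With both strains pooled (9 probes) the count was 22 under quantile normalization, 22 on the deposited values, 24 with normexp and quantile normalization, 17 with the replicate block, 0 with slide as a fixed block, 4 without the arrays carrying a spike-in note, 28 with quantile normalization and the replicate block together, and 17 with quantile normalization without replicate 3 of N2 embryos of 20 °C mothers. Single arrays left out gave 4 to 28, namely 28, 14 and 5 without replicates 1, 2 and 3 of that N2 group, 4 without replicate 2 of HC445 embryos of 20 °C mothers and 5 without replicate 1 of HC445 embryos of 25 °C mothers. Slide as a fixed block also moved the median of the set minus that of all tested probes to 0.19, against -0.23, and the cause was not tested; single arrays left out gave -0.31 to -0.07.

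In N2 alone (1 probe) the count was 5 with quantile normalization, the deposited values and the replicate block, 7 with normexp, 15 with quantile normalization and the replicate block, and 0 with array weights, without the spike-in arrays, without all replicate 3 arrays and without the shared slide of the 25 °C arrays. Single arrays left out gave 0 to 10: 10 without replicate 1 and 0 without replicate 3 of the 20 °C mothers, and 0 without replicates 2 or 3 of the 25 °C mothers. In HC445 alone (0 probes) it was 3 with quantile normalization, the deposited values, the replicate block and without all replicate 3 arrays, 2 with normexp, 1 with only probes above background on all arrays and with slide as a random block, 4 with array weights, 5 with quantile normalization and the replicate block, 9 with quantile normalization without that N2 array, and 0 to 5 with single arrays left out (2 and 5 without replicates 1 and 3 of N2 embryos of 20 °C mothers).

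For the parental minus the grandparental effect (1 probe) the count was 3 with quantile normalization, normexp, the deposited values and the replicate block, 2 with only probes above background on all arrays, with slide as a random block or array weights, 4 with quantile normalization and the replicate block and 4 with it and without that N2 array, 0 without the spike-in arrays and without the shared slide, and 0 to 3 with single arrays left out. WBGene00004491 missed the threshold there with slide as a fixed block (-0.30), without the spike-in arrays (-0.95) and without the shared slide (-0.86), and in 13 of the 24 fits with 1 array left out.

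Of the 9 probes, WBGene00004491, WBGene00004473 and WBGene00004440 kept their call in 38 of 39 settings, WBGene00004437 in 37 and WBGene00004446 in 16. Slide as a fixed block turned the parental fold change of WBGene00004420 to 0.10, WBGene00004446 to 0.029, WBGene00004473 to 0.021 and WBGene00004480 to 0.12, and in HC445 WBGene00004473 to 0.32 and WBGene00004454 to 1.31. For strain by parental temperature WBGene00004426 turned to -0.44 and WBGene00004491 to -0.30 without all replicate 3 arrays, to -0.15 and -0.087 with quantile normalization without that N2 array, and to -0.18 and -0.11 when it alone was left out. Over all fits with 1 array left out the values ran from -0.11 to 0.60 for WBGene00004491 and from -0.18 to 0.55 for WBGene00004426.

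The replicate block moved the counts for parental temperature (pooled and by strain) and for the parental minus the grandparental effect, as given above, and no other count. The alternatives without the replicate 3 arrays, without the shared slide, and with 2 choices together were chosen after seeing the data. All members were well above background on all arrays. The results are limited by 3 arrays per group and by slides that temperature groups only partly share.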
